A study of Mus musculus with 27 samples.

Results

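Kdm6a, Kdm6b, Ezh2 and Suz12 encode demethylases and Polycomb subunits that remove and write trimethylation of lysine 27 on histone H3 (H3K27me3), and Kdm6a is the gene usually called Utx. They were followed here through chromatin maps of mouse cells with and without Utx. Each gene was represented by a fixed window on the mouse build mm9: chrX:17730000-17860000 for Kdm6a, chr11:69208000-69235000 for Kdm6b, chr6:47475000-47552000 for Ezh2 and chr11:79800000-79852000 for Suz12. Every peak that overlapped a window was taken, which gave 69 peaks of the 234651 in 19 peak lists.

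The lists came from chromatin immunoprecipitation followed by sequencing (ChIP-seq) for H3K4me3 (8 lists), H3K27me3 (8 lists) and UTX (3 lists, WT cells only). The cells were 2 aberrant iPS clones that arose from Utx-KO fibroblasts, Utx-KO and WT V6.5 embryonic stem cells (ESC), Utx-KO and WT V19-OSKM embryonic fibroblasts (MEF) given doxycycline (dox), and untreated Utx-KO and WT MEF. Utx-KO cells are Utx-/Y and WT cells are Utx+/Y, so all carry a single X chromosome. Dox starts reprogramming by the OSKM factors in the V19-OSKM fibroblasts, the labels do not give its duration, and ESC and MEF were both grown in 2i/LIF, a medium for pluripotent cells. Each iPS sample is 1 clone, described as improperly reprogrammed and labelled as without dox. Cell identity was not checked against marker genes, since no gene positions on mm9 were at hand. There was 1 library per cell state and antibody apart from the 2 clones, so no difference between states was tested. The spread between the clones is the only spread at hand, and it is not replicate error of ESC or MEF. It includes a list-wide offset, since clone 2 peaks were 1.4 times as wide as those of clone 1 at the median region.

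H3K27me3 is placed by Polycomb repressive complex 2, in which EZH2 is the methyltransferase and SUZ12 a core subunit that the complex needs for stability and activity. KDM6A (UTX) and KDM6B (JMJD3) are Jumonji-type demethylases that take the mark off again. H3K27me3 accompanies silenced developmental genes, whereas H3K4me3 accompanies the promoters of active and poised genes. Pluripotent cells hold many promoters with both marks.

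The start regions of the genes are shown because H3K4me3 collects at such CpG-rich starts. RefSeq promoters on GRCm38.p6 were at hand for Kdm6a, Ezh2 and Suz12. The 250 bases before each start are printed 5′ to 3′ on the gene's strand: chrX:18162325-18162574 (plus strand) for Kdm6a, chr6:47595031-47595280 (minus strand) for Ezh2 and chr11:79992856-79993105 (plus strand) for Suz12. Capitals mark matches on either strand to the CCAAT box (CCAAT), to the Sp1 motif GGGCGG, to the E-box motif CACGTG and to the E2F motif in the forms TTTGGCGC and TTTCCCGC. No matches of different motifs overlapped in these sequences.
Kdm6a: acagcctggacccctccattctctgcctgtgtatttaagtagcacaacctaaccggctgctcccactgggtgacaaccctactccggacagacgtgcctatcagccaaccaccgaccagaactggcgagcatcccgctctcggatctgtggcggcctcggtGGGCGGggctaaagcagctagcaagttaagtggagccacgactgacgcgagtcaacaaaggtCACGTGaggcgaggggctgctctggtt
Ezh2: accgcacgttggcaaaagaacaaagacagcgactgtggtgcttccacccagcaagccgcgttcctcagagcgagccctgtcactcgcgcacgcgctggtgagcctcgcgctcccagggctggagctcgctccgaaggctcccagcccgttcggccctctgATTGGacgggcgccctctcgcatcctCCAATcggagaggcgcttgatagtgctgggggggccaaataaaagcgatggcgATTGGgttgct
Suz12: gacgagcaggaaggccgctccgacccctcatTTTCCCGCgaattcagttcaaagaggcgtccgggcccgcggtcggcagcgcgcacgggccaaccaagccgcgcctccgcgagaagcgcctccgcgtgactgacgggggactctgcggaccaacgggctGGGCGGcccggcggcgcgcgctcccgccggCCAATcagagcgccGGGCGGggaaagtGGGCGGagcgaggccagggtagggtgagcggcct

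Counted along these stretches, Kdm6a had 15 CG dinucleotides, Ezh2 23 and Suz12 37, against a median of 6 over 32851 promoters in the same table. Suz12 had more of them than 97.8% of the promoters, Ezh2 more than 86.7% and Kdm6a more than 72.7%. Ezh2 held 3 CCAAT boxes and no match to the other motifs. Suz12 held 1 CCAAT box, 3 Sp1 matches and 1 E2F match, and Kdm6a held 1 Sp1 match and 1 E-box. Of all promoters in the table, 33.8% held a CCAAT box, 32.7% an Sp1 match, 6.02% an E-box and 1.30% an E2F match. The promoter table and the peaks are on different builds, so these bases could not be laid under the peaks, and a match says nothing about binding.

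All 4 windows carried H3K4me3 in all 8 lists, and neither UTX nor, with 1 exception, H3K27me3 was found in them. Of the 69 peaks, 68 were H3K4me3, 1 was H3K27me3 and none was UTX. The Kdm6a, Ezh2 and Suz12 windows had 10, 9 and 10 H3K4me3 peaks, all within a single stretch of about the size of a promoter, and the Kdm6b window had 39 in several stretches. In Kdm6a and Suz12 the stretch lay near the low-numbered end of the window, 10840 and 7684 bp from it, and in Ezh2 near the high-numbered end, 7766 bp from it. These are the ends at which the strands of the RefSeq promoters place the gene starts.

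UTX peaks were missing from the 4 windows in all 3 UTX lists, its own gene included. H3K4me3 peaks that carry UTX were uncommon in general: the share was 6.63% in WT ESC, 1.34% in WT MEF given dox and 0.200% in untreated WT MEF, so the 4 genes were like most marked regions in having none. The nearest UTX peak was 17.1 kb from the Suz12 promoter, in WT ESC, and scored 134. For Kdm6b, Ezh2 and Kdm6a the nearest in any list was 55.0, 194 and 1740 kb away.

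H3K27me3 was found in 1 of the 32 pairs of gene and list, inside the Kdm6b window of Utx-KO ESC, and there it did not overlap H3K4me3. The Utx-KO ESC list was the longest for H3K27me3, with 36231 peaks against 5679 in WT ESC, and 25.1% of its H3K4me3 peaks also carried H3K27me3. In the other 7 cell samples that share ranged between 0.0428% and 9.33%. No H3K4me3 peak of the 4 windows overlapped H3K27me3 in any list, with or without Utx. Absence from a list means only that no peak scored 50 or more, the lowest score deposited, and iPS clone 1 had 135 H3K27me3 peaks in all.

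The Kdm6a promoter had an H3K4me3 peak in every Utx-KO list. The width compared for each gene is that of the peak over its core, the position covered by most H3K4me3 lists, which was covered in all 8 lists for each gene. At Kdm6a the peak was 3263 bp wide in iPS clone 1, 3953 bp in iPS clone 2, 4475 bp in Utx-KO ESC, 5754 bp in Utx-KO MEF with dox and 2213 bp in untreated Utx-KO MEF. In WT cells it was 4762 bp in ESC, 4673 bp in MEF with dox and 2624 bp in untreated MEF. Utx-KO and WT values overlapped: both untreated fibroblast lists were lowest, and the widest and the narrowest peak were both in Utx-KO cells.

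The clones averaged 3608 ± 488 bp at Kdm6a (SD, n = 2). Utx-KO and WT ESC differed by 287 bp. Utx-KO and WT MEF differed by 411 bp without dox and 1081 bp with dox. The clone spread is not replicate error of ESC or MEF, so these differences cannot be judged by it. Relative to the median region, the log2 ratio of Utx-KO to WT MEF was -0.05 without dox and 0.09 with dox. In its own list the Kdm6a peak was at or above 92.7% to 96.3% of all peaks in width, which places it among the wide H3K4me3 peaks of every state. The labels do not say which part of Utx is missing, so H3K4me3 at the start of the gene neither checks the knockout nor measures its transcript.

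**Figure D1:**
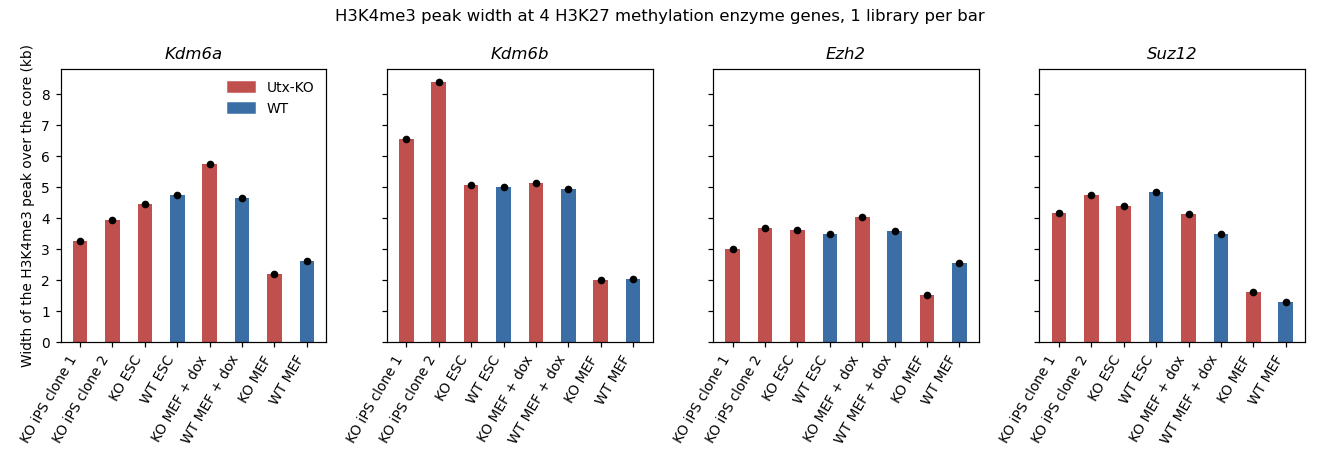
Width in kb (vertical axis) of the H3K4me3 peak over the core of each gene in 8 libraries, 1 bar and point per library, red for Utx-KO and blue for WT. The 2 untreated MEF libraries have the narrowest peaks at all 4 genes. The Kdm6b bars are the low cluster of its window, which may belong to a neighbouring gene. In that cluster the iPS clones stand highest, at 6559 and 8408 bp. With further pieces counted, it spanned 6472 bp in WT ESC and 6480 bp in Utx-KO ESC.

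The scores at Kdm6a reached 3100, a value at which scores gather, in several states. The score is the peak caller's own value for a peak. It was 2515 and 3100 in the iPS clones, 3100 in Utx-KO ESC and in Utx-KO MEF with dox, 1616 in untreated Utx-KO MEF, 2801 in WT ESC, 3100 in WT MEF with dox and 711 in untreated WT MEF. Many strong H3K4me3 peaks share the value 3100, and read depth was not known, so scores are not compared as levels. Within its own list the Kdm6a peak scored at or above 84.5% of peaks in WT MEF and 85.5% in iPS clone 1, and 93.0% or more elsewhere.

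Ezh2 and Suz12 are the genes of the writing complex, and the Ezh2 peak was narrower than that of Kdm6a in all 8 lists. The Ezh2 peak was 3027 and 3706 bp wide in iPS clones 1 and 2, 3624 bp in Utx-KO ESC, 4040 bp in Utx-KO MEF with dox and 1538 bp in untreated Utx-KO MEF, against 3481 bp in WT ESC, 3600 bp in WT MEF with dox and 2564 bp in untreated WT MEF. The iPS clones, the ESC and the fibroblasts with dox lay between 3027 and 4040 bp. Both untreated fibroblast lists lay below them.

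At Suz12 the peak was 4166 and 4750 bp wide in the iPS clones, 4408 bp in Utx-KO ESC, 4137 bp in Utx-KO MEF with dox and 1637 bp in untreated Utx-KO MEF. It was 4848 bp in WT ESC, 3510 bp in WT MEF with dox and 1293 bp in untreated WT MEF. The clones averaged 4458 ± 413 bp at Suz12 and 3366 ± 480 bp at Ezh2 (SD, n = 2). Utx-KO and WT ESC differed by 440 bp at Suz12 and 143 bp at Ezh2. Utx-KO and WT MEF differed by 1026 bp at Ezh2 without dox and by 627 bp at Suz12 with dox. The clone spread cannot judge differences between ESC or MEF lists. At Ezh2 the Utx-KO MEF peak was split, and its pieces covered 2648 bp, against 2564 bp in WT MEF. At Suz12 with dox the log2 ratio relative to the median region was 0.03.

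The cell kinds differed in the side to which the Suz12 peak reached. Toward higher coordinates, which by the RefSeq strand is into the gene, it reached 1859 and 1822 bp from the core in the iPS clones, 2018 bp in Utx-KO ESC and 2159 bp in WT ESC. It reached 1261 and 1130 bp in Utx-KO and WT MEF with dox, and 1003 and 634 bp in untreated Utx-KO and WT MEF. The iPS and ESC lists thus lay above all fibroblast lists on this side, whereas on the other side fibroblasts with dox, at 2875 and 2379 bp, overlapped the iPS and ESC lists, at 2306 to 2927 bp. Untreated fibroblasts were lowest on that other side too, at 633 bp in Utx-KO and 658 bp in WT MEF. Their H3K4me3 peaks were narrow in general, with medians of 832 and 1118 bp. How many of all regions separate the lists in the same way was not counted. This asymmetry was chosen after its values were seen.

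**Figure D2:**
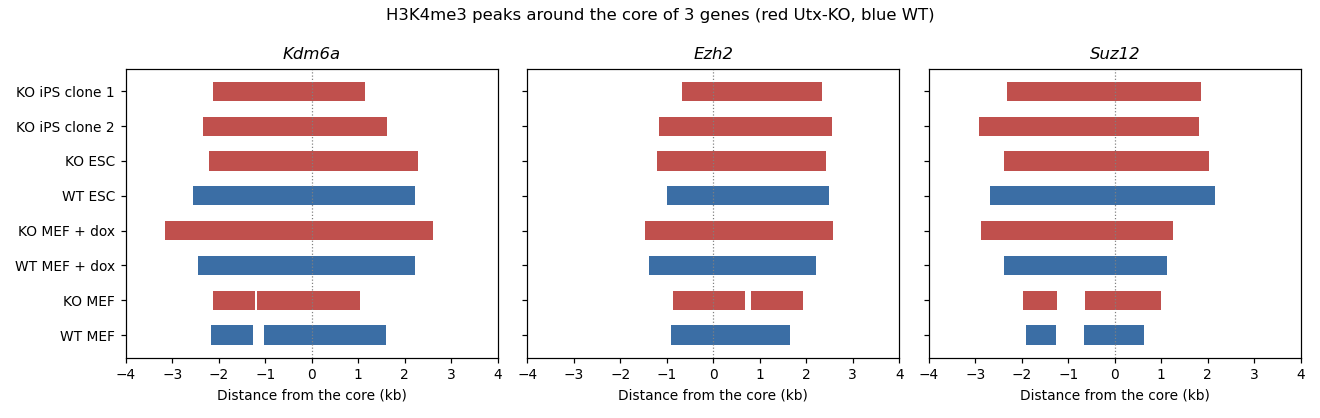
Extent of each H3K4me3 peak around the core of Kdm6a, Ezh2 and Suz12 (horizontal axis, distance in kb toward higher coordinates) in 8 libraries, red for Utx-KO and blue for WT. The untreated MEF lists show the peak in 2 pieces at Kdm6a and Suz12 and, in Utx-KO MEF, at Ezh2, while the other lists show 1 peak.

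In untreated fibroblasts the H3K4me3 of these promoters came in pieces. At Suz12 a gap of 599 bp in Utx-KO MEF (chr11:79806452-79807050), against 601 bp in WT MEF (chr11:79806425-79807025), parted a narrow peak from the core peak at nearly the same place. At Kdm6a the gap was 40 bp in Utx-KO MEF, against 229 bp in WT MEF. At Ezh2 Utx-KO MEF had a gap of 132 bp and WT MEF had a single peak.

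Broken peaks were frequent in these lists. WT ESC peaks over the cores of the 4 genes were met by 2 or more peaks at 4 of 4 genes in Utx-KO MEF, where 45.1% of all WT ESC peaks with a counterpart were met this way, and at 2 of 4 genes in WT MEF, where 29.3% were. With dox the share was 0.273% in Utx-KO and 0.802% in WT fibroblasts, and no member was split. Chromatin was sheared to fragments of 200 to 800 bp, so gaps of 40 to 132 bp were shorter than a fragment.

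Utx-KO and WT widths at Kdm6a, Ezh2, Suz12 and the low cluster of Kdm6b were within 1.5-fold of each other in ESC and with dox and, apart from Ezh2, in untreated MEF. The core peaks of the middle Kdm6b cluster in untreated MEF and of the high one in ESC differed by more. Both clusters came in pieces in the Utx-KO list. By covered length they were within 1.5-fold, at 2.53 kb in Utx-KO against 3.52 kb in WT MEF and 5.24 kb in Utx-KO against 6.86 kb in WT ESC. The Kdm6b value in each contrast is that of the low cluster, 1 of 3 in its window, which may belong to a neighbouring gene. In untreated MEF the ratio of Utx-KO to WT width was 0.843 at Kdm6a, 0.989 at Kdm6b, 0.60 at Ezh2 and 1.27 at Suz12. A change of 1.5-fold or more was counted as called, and 1 of 4 genes, Ezh2, passed it, as did 31.4% of 11741 regions with H3K4me3 in both states, whose median ratio was 0.873. The Ezh2 call rested on the split: its 2 pieces in Utx-KO MEF covered 2648 bp, against 2564 bp in WT MEF, and by covered length the log2 ratio was 0.05 in place of -0.74. With the middle Kdm6b cluster, whose core peak had a log2 ratio of -1.19, the count was 2 of 4.

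With dox the ratios of Utx-KO to WT MEF were 1.23 at Kdm6a, 1.04 at Kdm6b, 1.12 at Ezh2 and 1.18 at Suz12. None of 4 genes was called, against 15.6% of 15099 regions, and the median region had a ratio of 1.16. In ESC the ratios were 0.940 at Kdm6a, 1.01 at Kdm6b, 1.04 at Ezh2 and 0.909 at Suz12. None was called with the low Kdm6b cluster, against 10.7% of 16322 regions with a median ratio of 0.937. With the high Kdm6b cluster, which came in pieces in Utx-KO ESC, 1 of 4 was called, at a log2 ratio of -1.92 for its core peak. In these 3 contrasts Kdm6a, the gene labelled as knocked out, stood above 45.7%, 62.3% and 50.7% of all regions, near the middle each time.

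Dox came with wider H3K4me3 at all 4 genes, as at nearly all regions. In Utx-KO MEF the peak with dox was 2.60 times as wide as without at Kdm6a, 2.55 times at Kdm6b, 2.63 times at Ezh2 and 2.53 times at Suz12. All 4 genes were called wider, where 96.2% of 12833 regions were called and the median ratio was 2.88. In WT MEF the ratios of dox to no dox were 1.78 at Kdm6a, 2.43 at Kdm6b, 1.4 at Ezh2 and 2.71 at Suz12, so 3 of 4 were called, where 77.5% of 12437 regions were called and the median ratio was 2.03.

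Relative to the median region none of these 8 ratios passed 1.5-fold, and the Kdm6a peak widened slightly less than the median in both genotypes. Part of the widening at Kdm6a was the joining of pieces: by covered length the log2 ratio of dox to no dox was 0.89 in Utx-KO MEF and 0.41 in WT MEF, below the log2 of 1.5-fold in WT, against 1.38 and 0.83 for the core peak. At Ezh2 in Utx-KO MEF it was 0.61 by covered length and, with peaks up to 500 bp apart joined, 0.54, against 1.39 for the core peak. H3K4me3 lists with dox had the widest peaks of the series, the median peak being 3063 bp in Utx-KO and 2379 bp in WT cells, against 832 and 1118 bp without dox. The part of this general difference in the members' ratios was not tested beyond the scaling by the median region.

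ES cells also had wider peaks than untreated fibroblasts. Ratios of Utx-KO ESC to Utx-KO MEF were 2.02 at Kdm6a, 2.52 at Kdm6b, 2.36 at Ezh2 and 2.69 at Suz12, so 4 of 4 genes were called, against 74.2% of 11618 regions (median ratio 2.00). Between WT ESC and WT MEF they were 1.81, 2.46, 1.36 and 3.75 in the same gene order, so 3 of 4 were called, against 67.0% of 11377 regions (median ratio 1.79). Scaled by the median ratio, 0 of 4 genes were called in Utx-KO cells and 1 of 4, Suz12, in WT cells. Suz12 stood above 92.7% of regions in the WT contrast and above 71.6% in the Utx-KO contrast. By covered length, which counts both pieces in MEF, its log2 ratio of ESC to MEF was 1.32 in WT cells, against 1.91 for the core peak. The Kdm6a calls did not hold by covered length, at log2 ratios of 0.52 in Utx-KO and 0.44 in WT cells, nor did that of Ezh2 in Utx-KO cells, at 0.45.

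**Figure D3:**
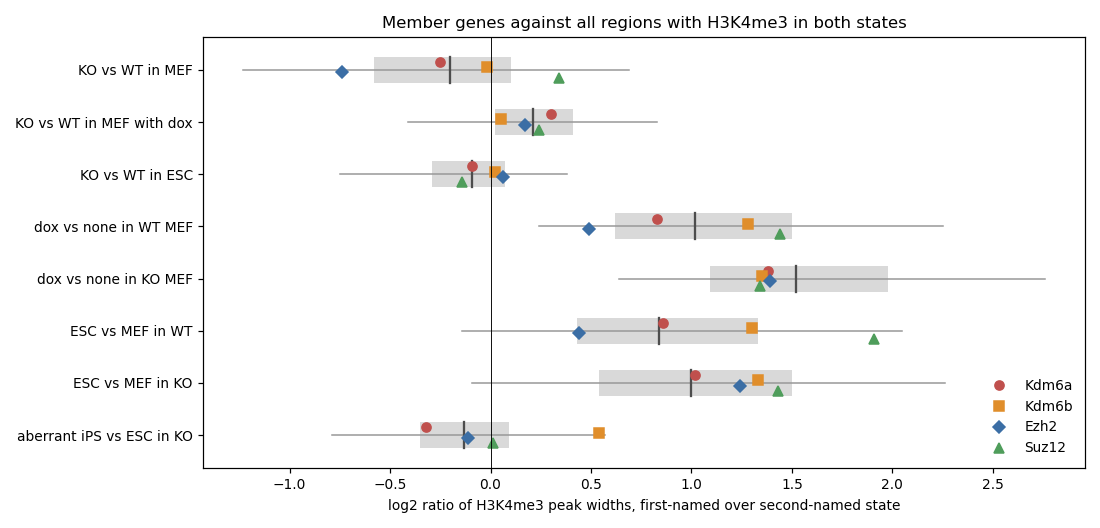
Log2 ratio of H3K4me3 peak widths for 8 contrasts, the first-named state over the second-named. Symbols are the 4 genes, and the grey box, line and tick give the middle 50%, the range from the 5th to the 95th percentile and the median of all regions. Most symbols fall in or near the grey boxes. Kdm6b (low cluster) in the iPS contrast and Suz12 in WT ESC against WT MEF lie near the upper end of their lines.

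Kdm6b is the gene of the other demethylase, and H3K4me3 covered more of its window than of the others. The window held 3 clusters of peaks: a low one at chr11:69207357-69213679, a middle one at chr11:69221443-69226350 and a high one at chr11:69227423-69234415. H3K4me3 covered 70.5% and 87.8% of the window in iPS clones 1 and 2, 60.2% in Utx-KO ESC, 66.1% in WT ESC, 65.2% and 60.9% in Utx-KO and WT MEF with dox, and 39.2% and 38.8% in untreated Utx-KO and WT MEF. At Kdm6a, Ezh2 and Suz12 the covered share of the window was at most 9.32%. Their windows were longer, at 130001, 77001 and 52001 bp against 27001 bp for Kdm6b, which lowers the share. By covered length the Kdm6b window had 10.5 to 23.7 kb and the others at most 5.75 kb. Part of the Kdm6b coverage may belong to a neighbouring gene.

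The peak taken for Kdm6b by the core rule is the low cluster, which runs over the low edge of the window. RefSeq lists Tmem88 and Naa38 before Kdm6b and Dnah2 after it on chromosome 11. No gene positions on mm9 were at hand, so which cluster holds the Kdm6b start, and which may belong to a neighbour, could not be told. Values are therefore given for all 3 clusters.

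The low cluster was widest in the aberrant iPS clones. Its peak was 6559 and 8408 bp wide in clones 1 and 2 (mean 7484 ± 1307 bp, SD, n = 2), 5091 bp in Utx-KO ESC, 5150 bp in Utx-KO MEF with dox and 2020 bp in untreated Utx-KO MEF, against 5019 bp in WT ESC, 4961 bp in WT MEF with dox and 2042 bp in untreated WT MEF. By this peak both clones lay above all 6 other lists. In WT ESC, however, a further peak of 1362 bp lay beyond a gap of 91 bp. With further pieces counted, the cluster spanned 6472 bp in WT ESC and 6480 bp in Utx-KO ESC, so clone 1 was hardly wider than either. The extra width of the clones' core peak was on the side inside the window, which reached 5077 and 6892 bp from the core in the clones and 3375 bp in Utx-KO ESC.

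The ratio of the clones to Utx-KO ESC was 1.46 on the mean log2 width, above 94.6% of 15933 regions, whose median ratio was 0.913. No gene of 4 was called on the mean of the clones, against 15.4% of regions. At Kdm6a, Ezh2 and Suz12 the ratios were 0.803, 0.924 and 1.01. Clone 2 alone gave a log2 ratio of 0.72 at Kdm6b, past 1.5-fold, and clone 1 alone 0.37. Utx-KO ESC had a further peak of 981 bp beyond a gap of 408 bp, and with peaks up to 500 bp apart joined the log2 ratio fell to 0.20.

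**Figure D4:**
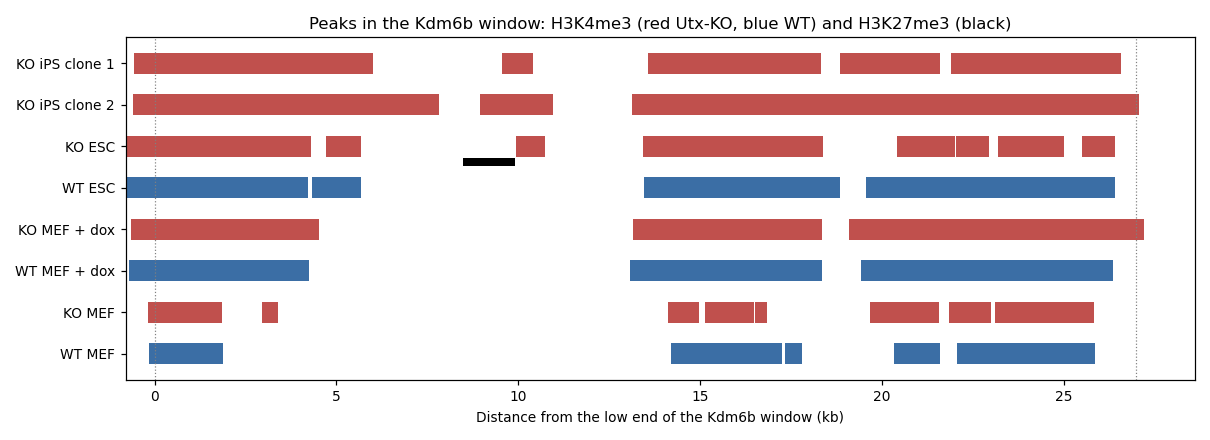
Peaks in the Kdm6b window by distance in kb from its low-numbered end, in 8 libraries, red for H3K4me3 in Utx-KO cells, blue for H3K4me3 in WT cells and black for H3K27me3. Dotted lines mark the window's ends. The high cluster is 1 peak in WT ESC and 4 peaks in Utx-KO ESC, and in iPS clone 2 the middle and high clusters form a single peak of 13961 bp.

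In the high cluster Utx-KO and WT ESC differed. Utx-KO ESC had 4 peaks of 1611, 917, 1811 and 897 bp, with scores of 617, 57.8, 470 and 59.8. The gaps between them were 18, 227 and 519 bp. WT ESC had 1 peak of 6857 bp with a score of 1066. Covered length within the cluster was 5.24 kb in Utx-KO ESC and 6.86 kb in WT ESC. Of 17018 WT ESC peaks with a counterpart, 3.65% were met by 2 or more Utx-KO ESC peaks and 2 (0.0118%) by 4 or more, this one among them. The WT ESC peak was at or above 98.9% of its list in width, and a wide peak has more room for pieces. The share among peaks of similar width was not counted. The 2 narrower of the 4 peaks had scores close to the lowest deposited, 50. The cluster was singled out after its values were seen.

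Elsewhere the high cluster was unbroken with dox, at 8125 bp in Utx-KO and 6923 bp in WT MEF. It came in 2 pieces in iPS clone 1, and in clone 2 a single peak of 13961 bp spanned the middle and high clusters. Untreated Utx-KO MEF had 3 pieces covering 5.76 kb and WT MEF 2 pieces covering 5.08 kb.

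The middle cluster was the strongest of the 3 in untreated WT MEF. Its peak over the core was 1336 bp wide in Utx-KO MEF, against 3046 bp in WT MEF, and its covered length was 2.53 kb in 3 pieces in Utx-KO MEF and 3.52 kb in 2 pieces in WT MEF. The score of its core peak was at or above 84.0% of peaks in the Utx-KO MEF list and 99.4% of those in the WT MEF list. In the other lists the cluster was covered for 96.9% or more, at 100% in Utx-KO ESC, 99.5% in WT ESC and 100% in both dox lists.

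Between the low and the middle cluster, both iPS clones and Utx-KO ESC had a short H3K4me3 peak. It was 848 bp wide in iPS clone 1 (chr11:69217555-69218402, score 102), 2010 bp in iPS clone 2 (chr11:69216946-69218955, score 161) and 816 bp in Utx-KO ESC (chr11:69217933-69218748, score 52.1). WT ESC and the MEF lists of both genotypes lacked it. The clones have no WT counterpart, so Utx-KO and WT lists of the same cells differed only in ESC. How many of all regions share this pattern was not counted. The H3K27me3 peak of Utx-KO ESC, at chr11:69216486-69217898 with a width of 1413 bp and a score of 68.3, lay directly beside the short Utx-KO ESC peak. Both Utx-KO ESC peaks ranked low in their lists, at or above 0.626% of H3K4me3 and 25.9% of H3K27me3 scores. These peaks were chosen after their values were seen, and the part of list length in their detection was not tested. The lists held 23388 and 28232 H3K4me3 peaks in the clones, 20133 in Utx-KO ESC and 22056 in untreated Utx-KO MEF, which lacked the peak, against 19468 in WT ESC.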

How the data were processed

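The authors deposited 1 peak list per immunoprecipitated sample, with chromosome, start, end, peak name and a score for each peak. Per the submitters' processing notes CASAVA 1.8.2, Bowtie 0.12.5, MACS 1.4.1 and build mm9 were used. Their settings, and which control each list had, are not given in the sources used here, and no header names them. The deposited score ranks peaks within a list, apart from ties. It starts at 50, gathers at 3100 and reaches 3233. Whole-cell extracts were not analysed here, and sequencing depth was unknown, so no counting interval is given.

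Peaks off the numbered chromosomes, X and Y were dropped (1 peak). Windows came from a fixed rule, and an overlap of 1 bp was enough. The named genes are the 4 members. The members and lists were chosen with earlier results of these data known. Overlapping peaks of the 8 H3K4me3 lists were merged into 33646 regions. In each region and window the core was the position covered by most lists, taken as the midpoint of the longest such run, and the width was that of the peak over it. Widths were compared as ratios, with clones averaged on the log2 scale. A ratio of 1.5 or more in either direction was called.

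The alternatives were a score of at least 100, the widest peak, covered length, joining peaks up to 500 bp apart, equal peak numbers, a fold of 2, scaling by the median ratio and each clone alone. The middle and high Kdm6b clusters, which are stretches covered by at least 4 lists, were added after the data were seen. Promoters come from RefSeq (GRCm38.p6), and 3 of 4 genes had one. Motifs were chosen after the sequences were seen. Ezh1, Eed and other Polycomb genes were not analysed here, since no mm9 positions were at hand. Width code was tested on simulated data. Python 3.11.15 and numpy 2.4.6 were used.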

Additional observations from a re-analysis of the deposited data

How the results depend on the processing

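No paired analysis was possible because each state had 1 library per antibody and no result came from a test. Of 80 recomputed counts, 61 stayed within 1.5 times the reported count. These include counts of 0 that stayed 0 and counts of 3 that became 2. A score of at least 100 and equal peak numbers changed no H3K4me3 count. The core peaks all scored 450 or more, so the score cut could not remove them. The share of 61 is therefore no measure of robustness. The number of genes past 1.5-fold in Utx-KO against WT MEF (1) became 0 by covered length, with peaks up to 500 bp apart joined, at a fold of 2 and when scaled by the median ratio, and 2 with the middle Kdm6b cluster. Under the first 2 of these the Ezh2 log2 ratio reversed, to 0.05 and 0.12. Scaling by the median ratio gave 0 for dox against none in WT MEF (3 before) and in Utx-KO MEF (4 before), 1 for ESC against MEF in WT cells (3 before), 0 in Utx-KO cells (4 before) and 1 for the clones against Utx-KO ESC (0 before). Log2 ratios that reversed under it were -0.19 at Kdm6a in WT MEF and, in Utx-KO MEF, -0.15 at Kdm6a, -0.17 at Kdm6b, -0.13 at Ezh2 and -0.19 at Suz12. Ratios below 1.5-fold changed sign under it too, among them Ezh2 in WT MEF with dox against none (-0.53, from 0.49) and in WT ESC against MEF (-0.40, from 0.44). For ESC against MEF in Utx-KO cells covered length and joined peaks each gave 2, and the high Kdm6b cluster turned its log2 ratio to -0.59. With that cluster 1 gene was past 1.5-fold in Utx-KO against WT ESC (0 before). For the clones against Utx-KO ESC the widest peak and the middle and high Kdm6b clusters each gave 1, and leaving out 1 clone gave 0 to 1. The single H3K27me3 peak was lost, to 0, at a score of at least 100 and when H3K4me3 overlap was required. Beyond the splitting of peaks and the scaling, the cause was not tested. Unknown read depth limits all widths.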

Other observations

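Widths of most regions moved together across the 8 H3K4me3 lists. Over 10552 regions present in all lists and outside the windows, the median Pearson r of log2 width with the Kdm6a peak was 0.881. The 3 regions most like Kdm6a lay at chr9:104954915-104957519 (r 0.999), chr10:62039309-62042253 (r 0.997) and chr13:67913779-67916535 (r 0.995), and their narrowest and widest peaks were 1077 and 2498, 1049 and 2945, and 1093 and 2757 bp. Among the other members r with Kdm6a was 0.909 for Ezh2, 0.806 for Suz12 and 0.692 for the low cluster of Kdm6b. All points share their list's depth and general peak width, so these values describe the lists as much as the regions. The widest peak was 2.60 times the narrowest at Kdm6a, 2.63 times at Ezh2, 3.75 times at Suz12 and 4.16 times at the low Kdm6b cluster. The median over regions present in all 8 lists was 3.25 times. Between the clones, clone 2 peaks were 1.4 times as wide as those of clone 1 at the median of 18750 regions.

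H3K27me3 came nearest to 3 of the promoters in untreated Utx-KO MEF. It lay 21.3 kb from the Kdm6a core, 20.6 kb from that of Ezh2 and 29.6 kb from that of Suz12, with scores of 148, 160 and 179, outside the windows. In untreated WT MEF the nearest peaks were 10200, 798 and 302 kb from the same cores. Kdm6b hardly differed, with the nearest peak 185 kb from its core in untreated Utx-KO MEF and 199 kb in untreated WT MEF. How many of all H3K4me3 regions have H3K27me3 at such distances in either list was not counted. The distances were singled out after their values were seen.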
